A study of Homo sapiens with 42 samples.

Results

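The genes described here are 31 enzymes and regulators of purine and pyrimidine nucleotide synthesis, taken from the counts table by their gene names. The rule uses no measured value, but the list was drawn up with earlier results of these data known. They are 31 of 57353 gene names in the table. By role they are 4 genes of phosphoribosyl pyrophosphate (PRPP) supply, 6 of the purine route to inosine monophosphate (IMP), 4 of the branch from IMP to adenine and guanine nucleotides, 5 of de novo pyrimidine synthesis, 7 of salvage and 5 nucleotide kinases. De novo members below are the 15 genes of the IMP route, the branch and the pyrimidine route, and salvage members are the 7 of the salvage list. All but 1 passed the filter on low counts (a mean of at least 1 count, and at least 1 CPM, the count scaled to library size, over all libraries), so 30 were tested. The exception was GMPR, which turns GMP back into IMP and had counts in 3 of 21 input libraries, with 5 the highest.

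The cells were MOLM-13, a human acute myeloid leukemia line whose FLT3 receptor carries the activating internal tandem duplication (FLT3-ITD), so every group shares that allele and the results speak for 1 line. Cultures were kept for 12 h in plain RPMI or in hBMSC-CM, a mixture of RPMI with medium conditioned by the human marrow stromal line HS-5, and received vehicle, the FLT3 inhibitor quizartinib (3 nM), the mTORC1 inhibitor everolimus (10 nM), or quizartinib plus everolimus (combo). The 7 conditions were vehicle, quizartinib and combo in RPMI, and vehicle, quizartinib, everolimus and combo in hBMSC-CM, with 3 cultures each. Every culture gave an input library of total poly(A) RNA and a library of its heavy polysome fraction, 42 libraries in all. No RPMI group with everolimus as the sole drug was analysed here.

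Cells make purines and pyrimidines by 2 kinds of route. De novo synthesis builds the rings from amino acids, bicarbonate and PRPP, and is costly in energy. Salvage reuses rings that are already made, by joining bases to PRPP or by phosphorylating nucleosides. The salvage list here also holds enzymes that split nucleosides or return GMP to IMP. Dividing cells, leukemic blasts among them, rely heavily on the de novo route, and inhibitors of IMPDH, DHODH and other steps are used as drugs against dividing cells and lymphocytes. In bulk RNA a lower level in a sample may be fewer cells of a type or less of that message per cell, which cannot be told apart. Levels here are counts scaled to the size of each library, so a general loss of RNA per cell does not show in them. The study reports lower RNA yields with quizartinib and with combo, more so in polysomes than in input. Rises and falls below are therefore relative to the other messages of the same library.

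Total counts ran from 19439370 to 38786394 per library. The 12 leukemia identity genes summed to 1930 to 3270 CPM in input. Of these, 11 passed the filter and KIT did not, and LYZ (mean 568) and CEBPA (mean 512) were the highest in RPMI vehicle input. The 12 stromal marker genes summed to 2.36 to 9.57 CPM in input with 3 of them, COL3A1, LUM and POSTN, at 0 in every library. The stromal sum was 2.66 to 5.21 CPM in RPMI vehicle input and 5.34 to 8.84 with quizartinib, with TAGLN the highest of the 12, and its part in the results was not tested. Mitochondrial transcripts took 7.05% to 10.2% of counts in the replicate 1 input libraries of the 6 conditions other than everolimus alone, against 3.17% to 5.35% in the other input libraries. Where a blocked fit is named below, it removes differences of this kind between replicate numbers within each fraction and leaves out everolimus alone, whose libraries did not follow the numbering of the other conditions. It was chosen after the data were seen. The study describes its replicates as biological, and the labels do not say how cultures were separated.

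Across the 31 genes, quizartinib in RPMI lowered nearly all of the de novo pathway in input RNA, and for 7 members the change differed between media. In RPMI 21 of 30 tested members fell and 1, GMPR2, rose (edgeR, adjusted p under 0.05), where 18% of all 12939 genes fell, 16.6% rose and 34.6% were called in either direction. The 13 de novo members that fell were every one of the 15 except IMPDH1 and CTPS2. Of the 6 salvage members tested, PNP, APRT, UCK2 and HPRT1 fell. The median log2 fold change was -1.82 for de novo and -1.15 for salvage members, beside 0.08 for all genes, and every member called moved the same way in 3 of 3 same-numbered pairs. Values of vehicle and quizartinib libraries did not overlap for 24 of 30 members, against 55.7% of all genes. The blocked fit also called NME4 lower, and called 54.6% of all genes.

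In hBMSC-CM quizartinib lowered 14 members and raised GMPR2, where 6.84% of all genes fell, 5.46% rose and 12.3% were called in all. The de novo median was -0.84 and the salvage median -0.37, beside 0.01 for all genes. Groups did not overlap for 19 of 30 members (34.1% of all genes). The count was 9 without hBMSC-CM vehicle replicate 1, 10 without vehicle replicate 3 and 14 without vehicle replicate 2, and 11, 11 and 12 without each quizartinib replicate, with PPAT, UMPS, NME2, PNP and GMPR2 among the calls lost. With the blocked fit 19 members were called, beside 34.9% of all genes, the added ones being GMPS, IMPDH2, PFAS and PRPS2, all lower.

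Under quizartinib the 2 media differed directly. In hBMSC-CM 13 of 30 members were higher than in RPMI and 0 lower, where 6.11% of all genes were higher, 2.05% lower and 8.16% called. The 13 were CTPS1, DHODH, PPAT, PAICS, CAD, UMPS and GART of the de novo routes, UPP1, PNP and UCK2 of salvage, PRPS1, PRPS2 and NME1, and none belonged to the IMP branch. The de novo median was 0.83 and the salvage median 0.47, beside -0.03 for all genes. Groups did not overlap for 15 members (29.8% of all genes). Without hBMSC-CM quizartinib replicate 3 the count was 9, with CAD, NME1, PAICS and PRPS2 lost, and 1 or 2 of GART, PAICS and PRPS2 were lost with each other culture left out. The blocked fit added PFAS and called 23.1% of all genes. UPP1 was below 1 CPM on average in every RPMI group and met the filter only through hBMSC-CM, where it is high. It is 1 of the 13 and is also in the 30 tested, the 15 without overlap and the salvage median above. Its part in those values is no support for a difference between media.

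Whether quizartinib had a different effect in the 2 media was tested as the change in hBMSC-CM minus the change in RPMI. The difference was above 0 for 7 members (CTPS1, CAD, DHODH, UMPS, PNP, PRPS1 and UCK2) and below 0 for none, where 1.79% of all genes were above 0, 0.178% below and 1.96% called. It was 0.18 to 1.93 for all 15 de novo members. DHODH was no longer called when any 1 of 6 cultures was left out, namely hBMSC-CM quizartinib replicate 3, hBMSC-CM vehicle replicates 1 and 2, RPMI quizartinib replicate 1 and RPMI vehicle replicates 2 and 3, and the count over members stayed between 6 and 8. In the blocked fit 14 members were called, beside 9.83% of all genes, adding ATIC, GART, NME1, PAICS, PFAS, PPAT and PRPS2.

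**Figure D1:**
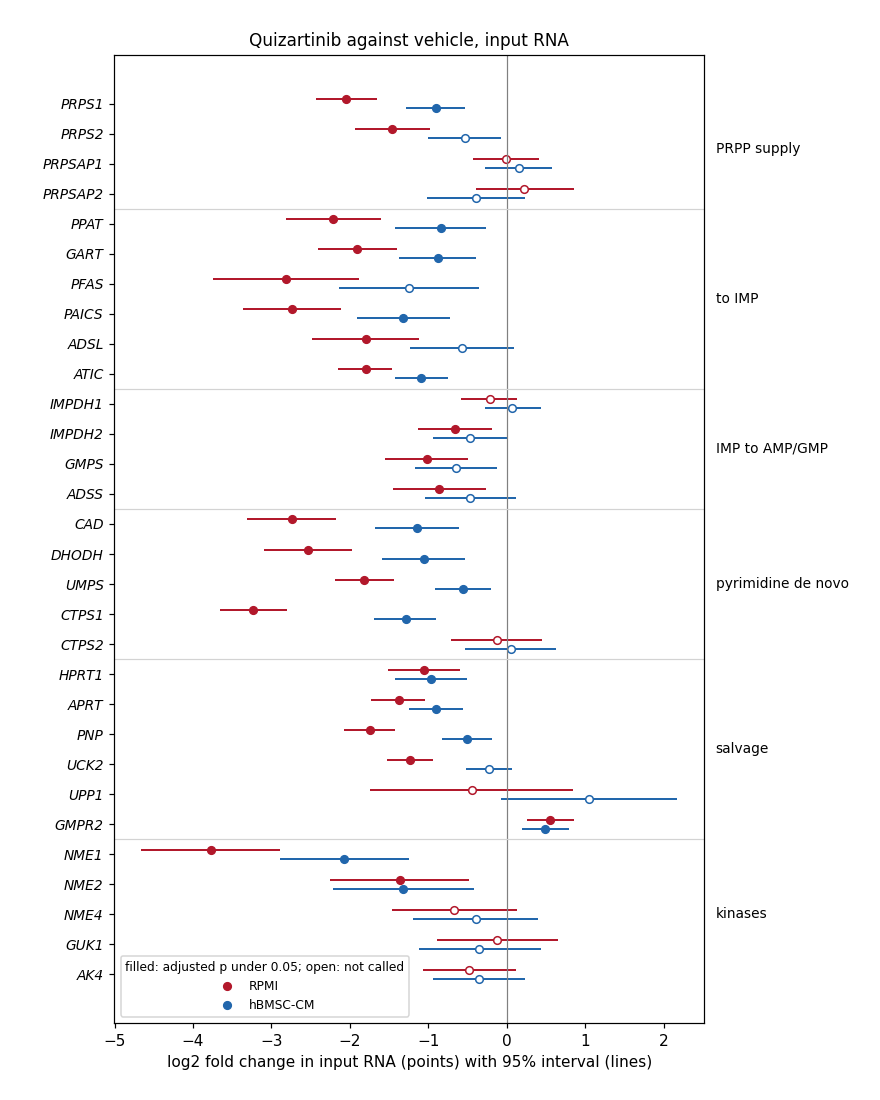
Log2 fold change of quizartinib against vehicle in input RNA (x axis) for the 30 tested members (y axis, grouped by role), in RPMI (red) and hBMSC-CM (blue), with 95% intervals. Filled points passed the test. The IMP route and CAD, DHODH, UMPS and CTPS1 lie between -1.80 and -3.23 in RPMI and NME1 at -3.77, with the hBMSC-CM points of each nearer to 0, while CTPS2, IMPDH1, PRPSAP1 and PRPSAP2 have open points in both media, between -0.39 and 0.22.

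In the other comparisons few or no members were called in input. Without drug, hBMSC-CM and RPMI differed for 0 members with edgeR, limma voom and DESeq2 alike, where 1.51% of all genes were called. Unadjusted p was under 0.05 for 6 (ATIC, UPP1, CAD, UMPS, ADSL and APRT). UPP1 met the filter only through hBMSC-CM, so its p is no support for a difference between media. The blocked fit called ATIC and CAD lower, 2 of 30, where it called 7.03% of all genes. Over both directions the members' share is near that of all genes, though that fit called 600 genes higher and 310 lower. All 15 de novo estimates were below 0, with a median of -0.38 beside -0.01 for all genes, and groups did not overlap for 9 of 30 members (16.1% of all genes). Adding everolimus to quizartinib in RPMI gave 0 called members with the same 3 tools (0.00773% of all genes), and 2, NME2 and PNP, with an unadjusted p under 0.05. There, groups did not overlap for 5 of 30 members (7.57% of all genes).

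In hBMSC-CM, combo against quizartinib lowered UMPS and PNP, where 0.24% of all genes were called, every one of them lower. The de novo median was -0.54 and the salvage median -0.22, beside 0.00 for all genes, and groups did not overlap for 11 of 30 members (14.7% of all genes). Both calls were lost without hBMSC-CM combo replicate 1, quizartinib replicate 2 or quizartinib replicate 3, and PNP alone without combo replicate 3. DESeq2 called 4 members and 0.788% of all genes. The blocked fit called 9 members, all lower, and 4.68% of all genes, adding CAD, CTPS1, DHODH, NME1, PAICS, PFAS and PPAT. Everolimus alone against vehicle in hBMSC-CM gave 0 called members by edgeR, limma voom and DESeq2 (0.41% of all genes), with 6 at an unadjusted p under 0.05 (CTPS1, PNP, NME1, AK4, PPAT and GMPR2). With everolimus alone, groups did not overlap for 17 of 30 members (27.7% of all genes), and 26 estimates were below 0. The de novo median was -0.25 and the salvage median -0.12, beside -0.02 for all genes. Since the libraries of everolimus alone did not follow the replicate numbering of the other conditions, a difference in handling and the drug cannot be told apart in that comparison.

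Levels between genes were compared as CPM per kilobase of annotated exon in RPMI vehicle input (mean ± SD, n = 3). IMPDH2 was highest at 106 ± 9.42, followed by APRT at 91.9 ± 8.7, ATIC at 63.3 ± 2.79 and PAICS at 52.2 ± 3.14. The salvage enzyme HPRT1 (34.6 ± 3.51) and IMPDH1 (38.7 ± 3.44) were alike within their spread. PPAT (4.41 ± 0.748), DHODH (4.81 ± 0.95) and UMPS (5.33 ± 0.506) were also alike within their spread and far below PAICS. Lowest of those tested were ADSL at 0.592 ± 0.0371 and UPP1 at 0.0757 ± 0.0313. Exons of IMPDH2 overlap another annotated gene on the same strand over 32.8% of their length, and those of ADSL over 11.1%. Those of NME1 and NME2 overlap the NME1-NME2 readthrough gene over 18.7% and 24.2%, and those of NME4 overlap DECR2 over 15.6%. GMPR2 shares 26.6% with TINF2 on the other strand. Counts of these genes may have lost or gained reads depending on how the authors counted. Exon lengths are from GENCODE release 44 and counts from Ensembl release 96, so the order of levels between genes is approximate.

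PRPP is the activated sugar consumed by both de novo routes and by the salvage of free bases. PRPS1 (chrX:107628428-107651993, plus strand) and PRPS2 (chrX:12791355-12824222, plus strand) encode its synthetases, and both fell with quizartinib in RPMI. PRPS1 was at 60.7, 45.2 and 49.7 CPM in the RPMI vehicle input libraries, at 14.1, 14.1 and 9.52 with quizartinib and at 13.2, 15.3 and 8.98 with combo. For PRPS1 in hBMSC-CM the input values were 48.3, 37.9 and 37.6 with vehicle, 26.1, 21.2 and 18.9 with quizartinib, 32.4, 34.4 and 34.4 with everolimus and 21.1, 18.7 and 14.1 with combo. All vehicle values lay above all quizartinib values in both media. The log2 fold change was -2.05 ± 0.19 (SE), adjusted p = 1.95e-10 in RPMI and -0.90 ± 0.18 (SE), adjusted p = 0.00119 in hBMSC-CM, and the difference between media was 1.14 ± 0.26 (SE), adjusted p = 0.00982.

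PRPS2 was at 32, 34.5 and 34.6 CPM in the RPMI vehicle input libraries, at 13.1, 14.5 and 9.14 with quizartinib and at 15.4, 14.9 and 10.8 with combo. For PRPS2 in hBMSC-CM the input values were 30, 31 and 28.4 with vehicle, 16.8, 25.1 and 19.7 with quizartinib, 27.4, 29.8 and 29.1 with everolimus and 14.4, 18.6 and 12.5 with combo. Here too vehicle and quizartinib libraries did not overlap in either medium, but the change of -1.46 ± 0.23 (SE), adjusted p = 5.74e-06, passed the test in RPMI and that in hBMSC-CM did not, with -0.54 ± 0.23 (SE), adjusted p = 0.118 in hBMSC-CM. Between media the difference in effect was 0.92 ± 0.32 (SE), adjusted p = 0.184. PRPSAP1 and PRPSAP2, which encode proteins bound to the synthetases that lower their activity, had estimates of -0.01 (95% interval -0.43 to 0.41) and 0.22 (95% interval -0.40 to 0.85) in RPMI and passed no test in input.

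PPAT commits PRPP to purines, and PAICS carries out 2 later steps of the same route. The 2 genes lie head to head on chromosome 4, PPAT at chr4:56393362-56435615, minus strand and PAICS at chr4:56435741-56464578, plus strand, in the annotation used here (GRCh38). Both fell with quizartinib in each medium in the reported fit, though the call for PPAT in hBMSC-CM depended on single cultures. The stretch between the starts is therefore printed. It is followed by 22 bases around the only E-box in the 2 promoter windows that cover this stretch, just past the start of PAICS. The E-box (CACGTG) is the motif bound by MYC and related factors and reads the same on both strands. Sequences are from RefSeq (GRCh38.p14), plus strand, and capitals mark CACGTG.
PPAT to PAICS, chr4:56435616-56435740: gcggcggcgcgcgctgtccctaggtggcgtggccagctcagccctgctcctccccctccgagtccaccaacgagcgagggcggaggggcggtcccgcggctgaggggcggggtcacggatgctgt
PAICS E-box, chr4:56435780-56435801: ctgtatttgctgCACGTGgaaa
The 125 bases between the genes hold no CACGTG.

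PPAT was at 26.3, 26.4 and 19.3 CPM in the RPMI vehicle input libraries, at 6.69, 4.5 and 4.34 with quizartinib and at 7.76, 5.19 and 3.73 with combo. For PPAT in hBMSC-CM the input values were 25.6, 17.9 and 19.2 with vehicle, 12.3, 13 and 9.61 with quizartinib, 13.5, 14.2 and 12.1 with everolimus and 7.46, 7.08 and 4.79 with combo. The vehicle libraries of each medium were above all quizartinib libraries, and everolimus and combo libraries in hBMSC-CM were below all vehicle libraries. In RPMI quizartinib lowered PPAT (-2.21 ± 0.29 (SE), adjusted p = 2.29e-07), a 4.64-fold drop, and the change in hBMSC-CM was -0.84 ± 0.28 (SE), adjusted p = 0.0435. The hBMSC-CM call was lost when any culture of that comparison except vehicle replicate 2 was left out. RLE factors, library size only, no filter and only the groups compared lost it as well. Under quizartinib it was 2.25-fold higher in hBMSC-CM than in RPMI (1.17 ± 0.29 (SE), adjusted p = 0.00587). Combo against quizartinib in hBMSC-CM was -0.85 ± 0.28 (SE), adjusted p = 0.323.

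PAICS was at 366, 412 and 398 CPM in the RPMI vehicle input libraries, at 57.7, 53.3 and 64.6 with quizartinib and at 64, 53 and 53.1 with combo. For PAICS in hBMSC-CM the input values were 298, 323 and 277 with vehicle, 95.6, 129 and 134 with quizartinib, 222, 212 and 214 with everolimus and 77, 81.1 and 88.8 with combo. Quizartinib libraries in hBMSC-CM held an intermediate place, above every RPMI quizartinib library and below every vehicle library. The log2 fold change was -2.74 ± 0.30 (SE), adjusted p = 7.42e-09 in RPMI and -1.32 ± 0.29 (SE), adjusted p = 0.00225 in hBMSC-CM, and the difference between the 2 was 1.42 ± 0.40 (SE), adjusted p = 0.0565.

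The other 4 enzymes of the IMP route fell with quizartinib in RPMI as well. PFAS, which makes formylglycinamidine ribotide, changed by -2.81 ± 0.46 (SE), adjusted p = 7.72e-06, GART, with 3 activities of the route, by -1.91 ± 0.25 (SE), adjusted p = 1.68e-07, ADSL, which also acts in the AMP branch, by -1.80 ± 0.33 (SE), adjusted p = 5.07e-05, and ATIC, which closes the ring, by -1.80 ± 0.17 (SE), adjusted p = 2.32e-10. In hBMSC-CM GART (-0.88 ± 0.24 (SE), adjusted p = 0.0135) and ATIC (-1.09 ± 0.17 (SE), adjusted p = 3.97e-05) fell, while PFAS (-1.25 ± 0.43 (SE), adjusted p = 0.0519) and ADSL (-0.57 ± 0.32 (SE), adjusted p = 0.261) did not pass. Under quizartinib GART was higher in hBMSC-CM (0.83 ± 0.24 (SE), adjusted p = 0.023), whereas ATIC, which fell in both media, had 0.28 (95% interval -0.06 to 0.61) there. The quizartinib call for GART in hBMSC-CM was lost without quizartinib replicate 3 or vehicle replicate 1. ADSL was low in every library, at 1.35 to 7.55 CPM in input.

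At the branch, IMPDH1 and IMPDH2 catalyse the same step toward GMP, and with quizartinib in RPMI the second passed the test and the first did not, though they were not tested against each other. IMPDH1 was at 121, 129 and 144 CPM in the RPMI vehicle input libraries, at 100, 107 and 131 with quizartinib and at 99.7, 93.3 and 112 with combo. For IMPDH1 in hBMSC-CM the input values were 121, 119 and 151 with vehicle, 124, 119 and 167 with quizartinib, 118, 122 and 127 with everolimus and 105, 96.8 and 142 with combo. Vehicle and quizartinib libraries overlapped in both media, and the estimates were -0.22 (95% interval -0.58 to 0.13) in RPMI and 0.07 (95% interval -0.28 to 0.43) in hBMSC-CM.

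IMPDH2 was at 574, 488 and 569 CPM in the RPMI vehicle input libraries, at 438, 283 and 309 with quizartinib and at 428, 274 and 307 with combo. For IMPDH2 in hBMSC-CM the input values were 431, 344 and 412 with vehicle, 349, 217 and 292 with quizartinib, 431, 431 and 430 with everolimus and 386, 258 and 290 with combo. Replicate 1 was the highest of the RPMI quizartinib and combo libraries, and vehicle and quizartinib did not overlap in RPMI but did in hBMSC-CM. IMPDH2 fell in RPMI (-0.66 ± 0.23 (SE), adjusted p = 0.0224), a call lost without RPMI quizartinib replicate 2 or 3 or without RPMI vehicle replicate 1, and its change in hBMSC-CM was -0.47 ± 0.23 (SE), adjusted p = 0.183. GMPS, which completes GMP, fell by 1.02 in RPMI (-1.02 ± 0.26 (SE), adjusted p = 0.00202), and ADSS (ADSS2 in newer annotation), which leads toward AMP, by 0.86 (-0.86 ± 0.29 (SE), adjusted p = 0.0176), the latter lost without RPMI quizartinib replicate 3 or RPMI vehicle replicate 1 or 2. Over the 4 branch genes the median was -0.76 in RPMI, beside -2.06 for the 6 genes of the IMP route, and none of the 4 passed the test of the difference between media, with estimates of 0.20 to 0.39.

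CAD carries the first 3 steps of pyrimidine synthesis on 1 protein, DHODH oxidises dihydroorotate at the inner mitochondrial membrane, and UMPS makes UMP. All 3 fell with quizartinib in both media, and all 3 fell less in hBMSC-CM. In hBMSC-CM the call for UMPS was lost without quizartinib replicate 1 or 2 or vehicle replicate 1 or 3. That for DHODH was lost without hBMSC-CM vehicle replicate 3. CAD lies at chr2:27217369-27243943, plus strand. The 250 bases before its start are printed because CAD stood among the largest falls of the de novo genes. They hold no CACGTG, nor do the 50 bases after the start, and bases beyond were not searched. The promoter window of DHODH holds 1, at -159 from its RefSeq start, shown in 30 bases. In the annotation used for gene positions DHODH starts earlier, within that motif.
CAD, chr2:27217119-27217368: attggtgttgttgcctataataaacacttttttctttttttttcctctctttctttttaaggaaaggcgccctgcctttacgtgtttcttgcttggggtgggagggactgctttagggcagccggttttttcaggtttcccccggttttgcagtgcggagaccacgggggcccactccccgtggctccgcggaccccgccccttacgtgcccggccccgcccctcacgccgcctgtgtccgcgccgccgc
DHODH E-box, chr16:72008573-72008602: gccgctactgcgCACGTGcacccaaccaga

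CAD was at 196, 211 and 240 CPM in the RPMI vehicle input libraries, at 31.3, 36.1 and 29.1 with quizartinib and at 32.8, 22.8 and 23.3 with combo. For CAD in hBMSC-CM the input values were 141, 140 and 144 with vehicle, 53.5, 63.8 and 75.7 with quizartinib, 140, 126 and 145 with everolimus and 32.5, 38.6 and 44.7 with combo. Quizartinib libraries of hBMSC-CM were above all RPMI quizartinib libraries, and the combo libraries of hBMSC-CM below all quizartinib libraries of that medium. CAD was 6.7-fold lower with quizartinib in RPMI (-2.74 ± 0.28 (SE), adjusted p = 1.12e-09) and 2.21-fold lower in hBMSC-CM (-1.14 ± 0.26 (SE), adjusted p = 0.00347), and the difference between media was 1.60 ± 0.37 (SE), adjusted p = 0.0112. Combo against quizartinib in hBMSC-CM was -0.74 ± 0.26 (SE), adjusted p = 0.398.

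UMPS (chr3:124730433-124749273, plus strand) was the member with the largest called fall when everolimus was added in hBMSC-CM. UMPS was at 37.3, 38.5 and 44.4 CPM in the RPMI vehicle input libraries, at 13.6, 9.16 and 11.4 with quizartinib and at 13.4, 13.1 and 11.9 with combo. For UMPS in hBMSC-CM the input values were 33.6, 28.7 and 30 with vehicle, 20.4, 19.9 and 22.3 with quizartinib, 26.6, 21 and 25.3 with everolimus and 10.2, 11.7 and 10.7 with combo. In hBMSC-CM the combo libraries were about 2 times below the quizartinib libraries with no overlap, whereas in RPMI the 2 groups overlapped. The change with combo was -0.94 ± 0.18 (SE), adjusted p = 0.0132 in hBMSC-CM and 0.17 (95% interval -0.19 to 0.53) in RPMI. These 2 changes were not tested against each other. Quizartinib alone changed UMPS by -1.82 ± 0.18 (SE), adjusted p = 9.95e-10 in RPMI and -0.56 ± 0.18 (SE), adjusted p = 0.0322 in hBMSC-CM, with a difference of 1.25 ± 0.25 (SE), adjusted p = 0.00307. DHODH followed the same order, with -2.53 ± 0.27 (SE), adjusted p = 3.7e-09 in RPMI, -1.06 ± 0.26 (SE), adjusted p = 0.00564 in hBMSC-CM and a difference of 1.47 ± 0.36 (SE), adjusted p = 0.0208.

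CTPS1 and CTPS2 both turn UTP into CTP, and in input CTPS1 passed tests that CTPS2 did not. CTPS1 was at 88.6, 69.2 and 69 CPM in the RPMI vehicle input libraries, at 9.65, 7.08 and 7.47 with quizartinib and at 10.8, 6.66 and 8.1 with combo. For CTPS1 in hBMSC-CM the input values were 83.1, 60.8 and 59.5 with vehicle, 31.8, 26.9 and 24.3 with quizartinib, 48.5, 43.9 and 49.4 with everolimus and 17.4, 18 and 16.2 with combo. The RPMI quizartinib and combo libraries were the lowest of all and overlapped each other, the hBMSC-CM quizartinib libraries lay in between, and those of hBMSC-CM combo were lower still than hBMSC-CM quizartinib. CTPS1 (chr1:40979300-41012565, plus strand) fell 9.37-fold in RPMI (-3.23 ± 0.21 (SE), adjusted p = 8.26e-14) and 2.45-fold in hBMSC-CM (-1.29 ± 0.19 (SE), adjusted p = 3.26e-05). The difference between media was 1.93 ± 0.27 (SE), adjusted p = 2.76e-05, the largest among the members called, and under quizartinib the level was 3.43-fold higher in hBMSC-CM (1.78 ± 0.20 (SE), adjusted p = 4.03e-08).

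CTPS2 was at 18.3, 16.9 and 25.5 CPM in the RPMI vehicle input libraries, at 20.6, 19.1 and 15.7 with quizartinib and at 18.4, 18.1 and 26.4 with combo. For CTPS2 in hBMSC-CM the input values were 19.8, 16.4 and 17.8 with vehicle, 18.9, 18.3 and 18.7 with quizartinib, 19.9, 24.3 and 18.5 with everolimus and 19.7, 17.8 and 16.9 with combo. All groups overlapped. The quizartinib estimates were -0.13 (95% interval -0.71 to 0.45) in RPMI and 0.05 (95% interval -0.53 to 0.63) in hBMSC-CM, and CTPS2 passed no input test. The 95% interval of CTPS1 in RPMI, -3.65 to -2.80, shares no value with that of CTPS2, though the 2 genes were not tested against each other.

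**Figure D2:**
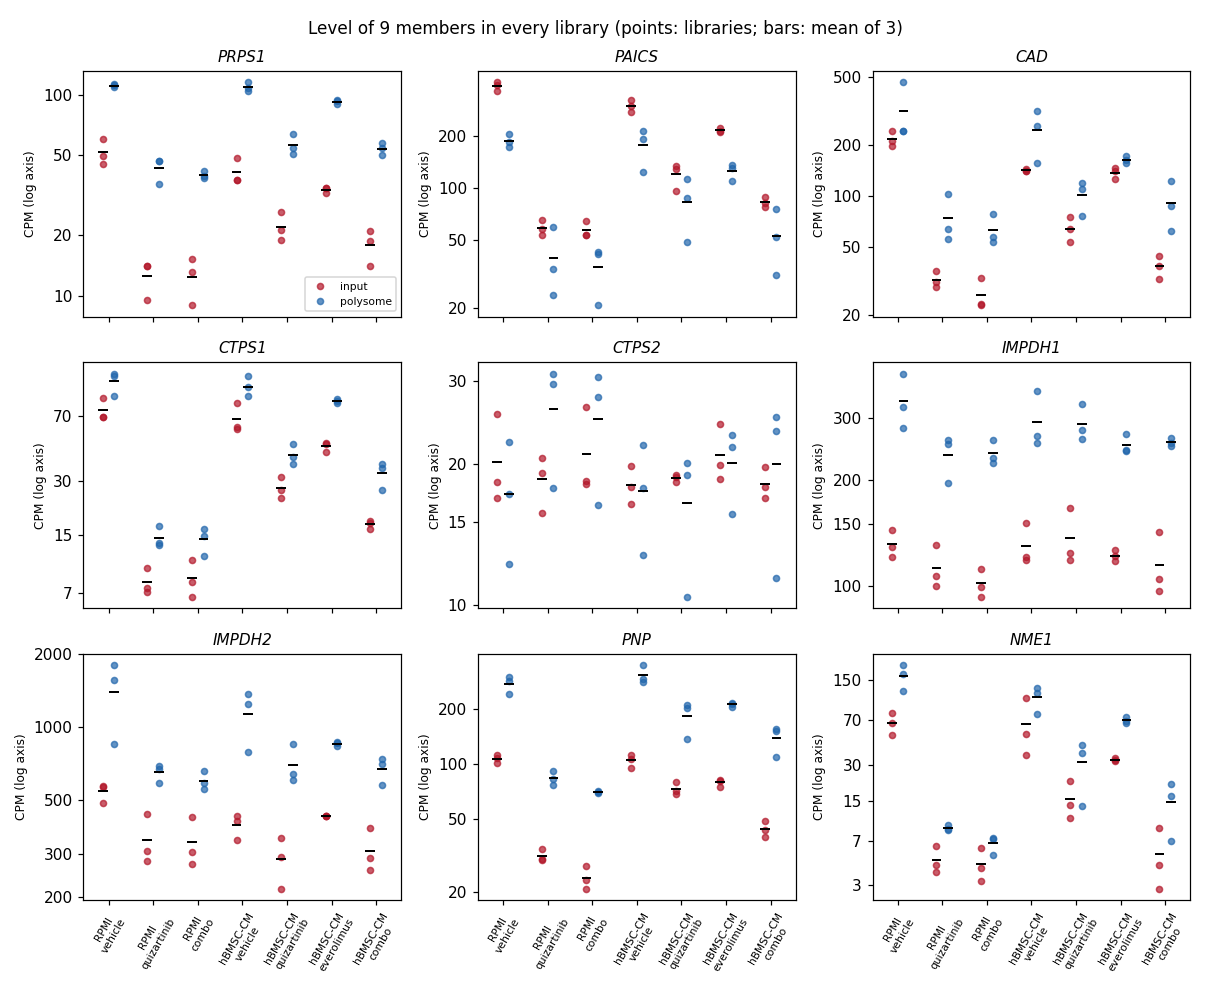
CPM (log axis) of 9 members in every library of the 7 conditions (x axis), with input libraries in red, polysome libraries in blue and a bar for the mean of 3. PRPS1, PAICS, CAD, CTPS1, PNP and NME1 drop with quizartinib in both media, with RPMI points below those of hBMSC-CM in input, CTPS2 input points overlap between all conditions, IMPDH1 input points overlap between vehicle and quizartinib of each medium, and each PAICS polysome point lies below the input point of its own culture.

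The salvage genes that fell in RPMI did so by 1.06 (HPRT1) to 1.75 (PNP) on the log2 scale. HPRT1 (chrX:134460165-134520513, plus strand) salvages hypoxanthine and guanine, and APRT (chr16:88809339-88811937, minus strand) salvages adenine. HPRT1 was at 62.3, 52.6 and 52.4 CPM in the RPMI vehicle input libraries, at 29.1, 26.2 and 25 with quizartinib and at 30, 29.4 and 29.2 with combo. For HPRT1 in hBMSC-CM the input values were 56.3, 50.5 and 60 with vehicle, 27.7, 31.1 and 26.4 with quizartinib, 43.5, 48.6 and 45.8 with everolimus and 28.2, 25 and 29.2 with combo. HPRT1 quizartinib libraries of the 2 media overlapped, and all were below all vehicle libraries. Its log2 fold change was -1.06 ± 0.23 (SE), adjusted p = 0.000341 in RPMI and -0.97 ± 0.23 (SE), adjusted p = 0.0041 in hBMSC-CM, and the difference between media was 0.09 (95% interval -0.56 to 0.74).

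APRT was at 175, 147 and 173 CPM in the RPMI vehicle input libraries, at 76.3, 54.3 and 59.1 with quizartinib and at 61.6, 46.5 and 55.4 with combo. For APRT in hBMSC-CM the input values were 115, 115 and 157 with vehicle, 69.4, 61.3 and 76.2 with quizartinib, 111, 111 and 113 with everolimus and 56.7, 51.2 and 59.2 with combo. As with HPRT1, quizartinib libraries of the 2 media overlapped and were below all vehicle libraries. APRT changed by -1.38 ± 0.17 (SE), adjusted p = 5.69e-08 in RPMI and by -0.90 ± 0.17 (SE), adjusted p = 0.000474 in hBMSC-CM, and hBMSC-CM against RPMI under quizartinib was 0.13 (95% interval -0.22 to 0.47).

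PNP and UCK2 passed the test of the difference between media. PNP splits purine nucleosides into base and ribose phosphate. PNP was at 101, 112 and 108 CPM in the RPMI vehicle input libraries, at 30.6, 34.7 and 29.9 with quizartinib and at 23.4, 27.8 and 21 with combo. For PNP in hBMSC-CM the input values were 107, 112 and 94.8 with vehicle, 68.7, 80.2 and 71.3 with quizartinib, 82.2, 75.4 and 80.7 with everolimus and 40, 48.8 and 43.6 with combo. In both media all quizartinib libraries were below all vehicle libraries, and in hBMSC-CM all combo libraries were below all quizartinib libraries. PNP fell by 1.75 in RPMI (-1.75 ± 0.16 (SE), adjusted p = 1.67e-10) and by 0.51 in hBMSC-CM (-0.51 ± 0.16 (SE), adjusted p = 0.0277), with a difference of 1.24 ± 0.22 (SE), adjusted p = 0.000886, and it fell further with combo in hBMSC-CM (-0.73 ± 0.16 (SE), adjusted p = 0.0277). In hBMSC-CM the quizartinib call for PNP was lost without quizartinib replicate 1 or 3 or vehicle replicate 1 or 2. UCK2 (chr1:165827614-165911618, plus strand) phosphorylates uridine and cytidine. UCK2 was at 88.5, 92.8 and 90.6 CPM in the RPMI vehicle input libraries, at 36.5, 42.5 and 36.5 with quizartinib and at 32.3, 33.8 and 34 with combo. For UCK2 in hBMSC-CM the input values were 87.7, 85.2 and 65.6 with vehicle, 63.7, 66.2 and 73.6 with quizartinib, 81.5, 73.2 and 80.2 with everolimus and 49.9, 54.1 and 54 with combo. In hBMSC-CM the vehicle and quizartinib libraries overlapped, which they did not in RPMI. UCK2 fell by 1.23 in RPMI (-1.23 ± 0.14 (SE), adjusted p = 1.98e-08), its change in hBMSC-CM was -0.23 (95% interval -0.52 to 0.06), and the difference was 1.01 ± 0.20 (SE), adjusted p = 0.00302.

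UPP1 (chr7:48088628-48108736, plus strand) splits uridine and was scarce throughout. UPP1 was at 0.303, 0.23 and 0.507 CPM in the RPMI vehicle input libraries, at 0.466, 0.152 and 0.136 with quizartinib and at 0.565, 0.266 and 0.411 with combo. For UPP1 in hBMSC-CM the input values were 0.379, 1.34 and 1.1 with vehicle, 1.99, 2.26 and 1.55 with quizartinib, 1.56, 1.52 and 1.81 with everolimus and 2.2, 1.26 and 1.85 with combo. The RPMI quizartinib values rest on 17, 6 and 5 counts and the hBMSC-CM quizartinib values on 62, 82 and 35. All hBMSC-CM quizartinib values were above all RPMI quizartinib values, and the log2 difference was 2.93, the largest of any member in that comparison. UPP1 passed the filter only through the hBMSC-CM groups, so this is a description. GMPR2, which like GMPR returns GMP to IMP, was the only member that rose with quizartinib. GMPR2 was at 45.7, 48.2 and 44.8 CPM in the RPMI vehicle input libraries, at 65.5, 66.1 and 70.9 with quizartinib and at 64.4, 63.1 and 73.6 with combo. For GMPR2 in hBMSC-CM the input values were 43.8, 49.2 and 50.3 with vehicle, 66.3, 70.2 and 64.9 with quizartinib, 60.3, 64.6 and 54.7 with everolimus and 75, 70 and 69.7 with combo. Quizartinib and combo libraries lay above all vehicle libraries in both media. The quizartinib call for GMPR2 in hBMSC-CM was lost without quizartinib replicate 2 or vehicle replicate 1 or 3. The rise was 0.55 ± 0.15 (SE), adjusted p = 0.00353 in RPMI and 0.49 ± 0.15 (SE), adjusted p = 0.0243 in hBMSC-CM, and the difference between media was -0.06 (95% interval -0.48 to 0.37).

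Nucleoside diphosphate kinases pass phosphate from ATP to other nucleoside diphosphates. NME1 (chr17:51153559-51162428, plus strand) had the largest fall of all members with quizartinib in both media. NME1 was at 52.8, 66.4 and 80.9 CPM in the RPMI vehicle input libraries, at 4.39, 3.85 and 6.38 with quizartinib and at 3.27, 4.18 and 6.07 with combo. For NME1 in hBMSC-CM the input values were 35.7, 53.3 and 106 with vehicle, 10.9, 13.9 and 21.8 with quizartinib, 32.9, 32.2 and 33.7 with everolimus and 2.82, 4.43 and 9.01 with combo. The 3 hBMSC-CM vehicle libraries spread over a nearly 3-fold range with replicate 3 highest, and in that medium combo libraries were below all quizartinib libraries, which were below all vehicle libraries. NME1 was 13.7-fold lower with quizartinib in RPMI (-3.77 ± 0.43 (SE), adjusted p = 1.69e-08) and 4.2-fold lower in hBMSC-CM (-2.07 ± 0.40 (SE), adjusted p = 0.000726). Under quizartinib it was higher in hBMSC-CM (1.67 ± 0.40 (SE), adjusted p = 0.00524), while the difference in effect was 1.71 ± 0.55 (SE), adjusted p = 0.132, and combo against quizartinib in hBMSC-CM was -1.52 ± 0.40 (SE), adjusted p = 0.107.

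NME2 (chr17:51165435-51171744, plus strand) follows NME1 on the same strand. The readthrough gene that spans both had 0 counts in all 42 libraries, which depends on how reads shared between genes were assigned. For the same reason the counts of NME2 may be too low, which was not tested. NME2 was at 3.28, 4.11 and 3.86 CPM in the RPMI vehicle input libraries, at 1.34, 1.09 and 1.94 with quizartinib and at 0.534, 0.639 and 0.506 with combo. For NME2 in hBMSC-CM the input values were 2.45, 2.74 and 4.28 with vehicle, 1.22, 0.965 and 1.64 with quizartinib, 2.4, 1.92 and 2.13 with everolimus and 0.675, 0.957 and 1.18 with combo. These levels rest on 16 to 163 counts a library in input. NME2 fell in RPMI (-1.36 ± 0.43 (SE), adjusted p = 0.013) and in hBMSC-CM (-1.32 ± 0.44 (SE), adjusted p = 0.0432), the former lost without RPMI quizartinib replicate 2 and the latter without 4 of the 6 cultures. Combo against quizartinib in RPMI was -1.37 ± 0.45 (SE), adjusted p = 1, with all combo libraries below all quizartinib libraries. NME4, GUK1 and AK4, kinases of mitochondria, of GMP and of mitochondrial AMP, passed no input test, with quizartinib estimates in RPMI of -0.67 (95% interval -1.47 to 0.13), -0.12 (95% interval -0.89 to 0.65) and -0.48 (95% interval -1.07 to 0.11).

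The E-box was counted in all RefSeq promoter windows (250 bases before to 50 after a start), where 29 of the 31 members had 1 or more, ADSL and IMPDH2 having none in the table. It occurred for 6 of 29 members (20.7%), beside 8.77% of 27305 genes, and in 13.7% of member windows, beside 7.26% of all windows. The 6 were PPAT and PAICS, which share 1 site, ATIC, DHODH, NME1 and AK4. By route it occurred for 4 of 13 de novo members and 0 of 7 salvage members. ATIC has 2 in its window, the first of which is printed here with that of NME1, and AK4, which has the motif in 2 windows, passed no input test.
ATIC E-box, chr2:215312001-215312030: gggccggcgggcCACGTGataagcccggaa
NME1 E-box, chr17:51153581-51153608: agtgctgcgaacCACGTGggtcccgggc

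The heavy polysome fraction was compared with input first in RPMI vehicle. A value above 0 says that a message was higher in polysome than in input libraries after TMM scaling. Those scaling factors differed between the fractions, so 0 does not stand for equal shares of reads. Members ranged from APRT, 1.86 on the log2 scale, to PAICS, -1.07. In edgeR 14 members were higher and 4 lower in polysomes, where 31.5% of all genes were higher, 33.9% lower and 65.4% called. The higher ones were APRT, IMPDH2, PNP, IMPDH1, NME1, GUK1, PRPS1, UCK2, NME4, PRPSAP1, DHODH, GMPR2, UMPS and CTPS1, and the lower ones PAICS, PPAT, ADSS and GMPS. The de novo median was 0.31 and the salvage median 0.88, beside -0.06 for all genes. Scaling by library size only, which compares shares of reads, moved the median of all genes by -0.55. It left 7 members higher and 9 lower, beside 63.7% of all genes called. The de novo median was then -0.27 and the salvage median 0.32, with UMPS at -0.02 in place of 0.55 and CTPS1 at 0.0. RLE factors moved the median of all genes by 0.14. Without RPMI vehicle replicate 1 the count was 13, with ADSS, GMPS, GUK1, NME4 and UMPS lost, without replicate 2 NME1 and UMPS were lost, and without replicate 3 CTPS1 and NME4. The blocked fit added ATIC, CAD and PFAS (higher) and HPRT1 (lower), and called 72.4% of all genes.

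The members of the head-to-head pair were both lower in polysomes. PAICS polysome levels were 184, 173 and 205 CPM in RPMI vehicle, 33.7, 23.9 and 58.9 with quizartinib and 41.4, 20.7 and 42.1 with combo, and 191, 123 and 213 in hBMSC-CM vehicle, 87.1, 48.6 and 113 with quizartinib, 130, 136 and 110 with everolimus and 51.4, 30.9 and 74.8 with combo. In each culture the polysome minus input difference of PAICS was below 0, with -1.0, -1.25 and -0.96 in RPMI vehicle. PPAT polysome levels were 14.3, 8.92 and 11.6 CPM in RPMI vehicle, 4.74, 4.15 and 3.12 with quizartinib and 3.12, 3.21 and 2.73 with combo, and 13.5, 10.8 and 8.82 in hBMSC-CM vehicle, 9.81, 5.02 and 4.93 with quizartinib, 7.74, 8.81 and 8.23 with everolimus and 5, 2.51 and 3.31 with combo. Their log2 ratios in RPMI vehicle were -1.07 ± 0.29 (SE), adjusted p = 0.00163 and -1.05 ± 0.28 (SE), adjusted p = 0.0017, and both stayed lower under every scaling tried.

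**Figure D3:**
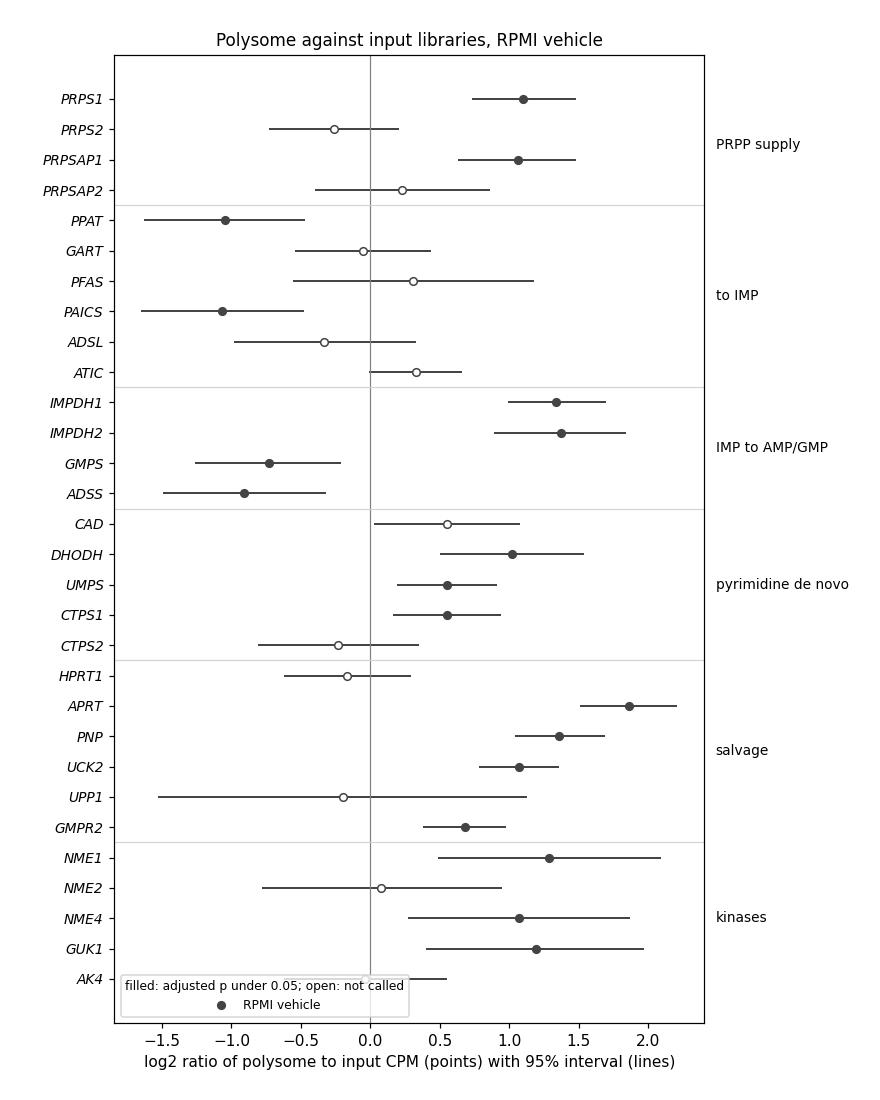
Log2 ratio of polysome to input CPM in RPMI vehicle (x axis, points with 95% intervals) for the 30 tested members (y axis, grouped by role), where filled points passed the test. APRT at 1.86 is furthest to the right, and PAICS and PPAT near -1.05 are furthest to the left.

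APRT was the member most enriched in polysomes. APRT polysome levels were 562, 597 and 637 CPM in RPMI vehicle, 139, 116 and 120 with quizartinib and 82.2, 104 and 102 with combo, and 397, 407 and 397 in hBMSC-CM vehicle, 173, 226 and 214 with quizartinib, 372, 360 and 396 with everolimus and 112, 181 and 138 with combo. Its polysome minus input difference was 1.68, 2.02 and 1.88 in the RPMI vehicle cultures, 0.86, 1.10 and 1.02 with quizartinib and 0.42, 1.15 and 0.88 with combo. In hBMSC-CM it was 1.79, 1.82 and 1.34 with vehicle and 1.32, 1.88 and 1.49 with quizartinib. Vehicle and quizartinib cultures did not overlap in RPMI and did in hBMSC-CM. The polysome change minus the input change with quizartinib in RPMI was -0.88 ± 0.24 (SE), adjusted p = 0.0463, the only member called, where 1.55% of all genes were called and 1.28% were lower. The call was lost when any of the 6 cultures was left out (adjusted p from 0.0626 to 0.219) and with a block per culture (0.0919), library size only, no filter or only the groups compared. Over all alternatives the estimate ran from -1.10 to -0.64 and the adjusted p from 0.000103 to 0.219. The blocked fit called 5 members, adding GUK1, IMPDH1 and NME4 (lower) and PFAS (higher), where it called 14% of all genes, so the members' share is near that of all genes. The de novo median was 0.48 and the salvage median -0.06, beside 0.15 for all genes, and the median of all genes moved by -0.14 with RLE factors and 0.23 with library size only.

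Of the other members, PRPS1 and UMPS had the smallest p after APRT in that comparison. PRPS1 polysome levels were 113, 112 and 109 CPM in RPMI vehicle, 46.7, 46.8 and 35.9 with quizartinib and 38.8, 41.8 and 39.6 with combo, and 116, 108 and 105 in hBMSC-CM vehicle, 50.9, 63.7 and 54.4 with quizartinib, 92.8, 94.2 and 89.9 with everolimus and 50.2, 57.5 and 54.6 with combo. UMPS polysome levels were 67.1, 68.1 and 41.1 CPM in RPMI vehicle, 25.4, 26.4 and 26.4 with quizartinib and 21.2, 21.2 and 26.3 with combo, and 62.5, 67.1 and 53.4 in hBMSC-CM vehicle, 28.3, 41.4 and 36.9 with quizartinib, 34.3, 34.2 and 31 with everolimus and 25.8, 26.6 and 29.5 with combo. The polysome change of PRPS1 minus its input change was 0.68 ± 0.26 (SE), adjusted p = 0.183, and that of UMPS 0.64 ± 0.25 (SE), adjusted p = 0.193, neither of which passed. In RPMI vehicle replicate 3 UMPS was lower in polysomes than in input, at -0.11, and in the other 2 cultures it was higher, at 0.84 and 0.82.

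**Figure D4:**
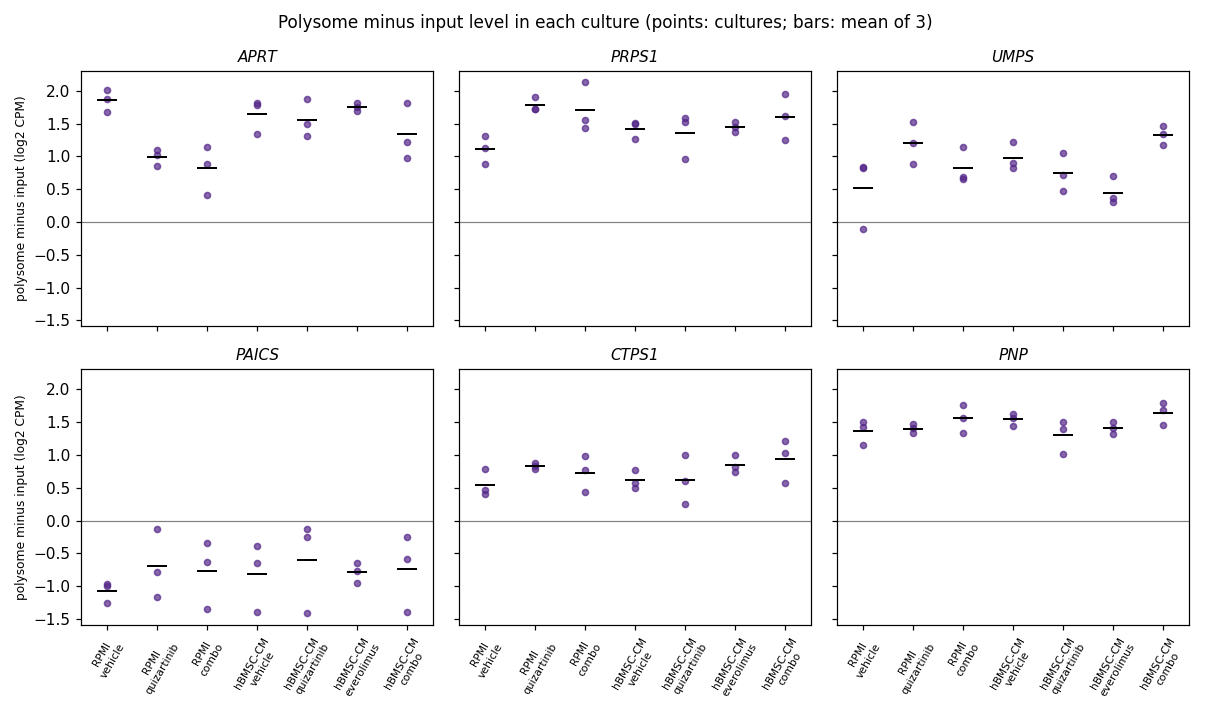
Polysome minus input level (y axis, log2 CPM) of 6 members in each culture of the 7 conditions (x axis), with a bar for the mean of 3. APRT drops from 1.86 in RPMI vehicle to 0.99 with quizartinib, PAICS lies below 0 in every culture, and PNP stays between 1.01 and 1.79.

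PRPS2 polysome levels were 32.3, 25.1 and 27 CPM in RPMI vehicle, 16.8, 11.7 and 16.2 with quizartinib and 18.3, 9.83 and 18.5 with combo, and 32.1, 22.8 and 26.7 in hBMSC-CM vehicle, 18.1, 13.7 and 16.2 with quizartinib, 23.3, 26.7 and 20.4 with everolimus and 22.6, 13.4 and 17.3 with combo. CAD polysome levels were 467, 241 and 242 CPM in RPMI vehicle, 103, 64.1 and 56.2 with quizartinib and 78.1, 57.5 and 53.8 with combo, and 315, 157 and 259 in hBMSC-CM vehicle, 110, 76.3 and 119 with quizartinib, 171, 156 and 163 with everolimus and 122, 62.7 and 87.8 with combo. CAD replicate 1 of RPMI vehicle was nearly 2 times the other 2 libraries.

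IMPDH1 polysome levels were 400, 322 and 281 CPM in RPMI vehicle, 259, 252 and 196 with quizartinib and 230, 260 and 224 with combo, and 356, 267 and 254 in hBMSC-CM vehicle, 327, 276 and 261 with quizartinib, 243, 242 and 269 with everolimus and 263, 250 and 254 with combo. IMPDH2 polysome levels were 1800, 1560 and 852 CPM in RPMI vehicle, 692, 591 and 676 with quizartinib and 589, 557 and 658 with combo, and 1370, 1240 and 792 in hBMSC-CM vehicle, 853, 605 and 643 with quizartinib, 872, 857 and 836 with everolimus and 707, 577 and 743 with combo. Both had larger shares of polysome than of input reads in RPMI vehicle, at 1.34 ± 0.18 (SE), adjusted p = 1.15e-07 and 1.37 ± 0.23 (SE), adjusted p = 6.82e-06, and IMPDH2 replicate 3 lay well below replicates 1 and 2 in both vehicle groups.

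CTPS1 polysome levels were 122, 91.5 and 118 CPM in RPMI vehicle, 16.8, 13.1 and 13.4 with quizartinib and 14.7, 11.4 and 16.1 with combo, and 118, 90.5 and 102 in hBMSC-CM vehicle, 37.7, 41.2 and 48.7 with quizartinib, 85.3, 87.7 and 82.8 with everolimus and 35.7, 26.9 and 37.7 with combo. CTPS2 polysome levels were 17.2, 12.2 and 22.2 CPM in RPMI vehicle, 29.6, 17.7 and 31.1 with quizartinib and 27.7, 16.3 and 30.6 with combo, and 17.7, 12.8 and 21.9 in hBMSC-CM vehicle, 20.1, 10.4 and 18.9 with quizartinib, 21.7, 23 and 15.6 with everolimus and 25.1, 11.4 and 23.5 with combo. The RPMI quizartinib and combo libraries were the lowest for CTPS1, as in input, while CTPS2 groups overlapped. GMPR2 polysome levels were 74.6, 78.9 and 68.9 CPM in RPMI vehicle, 84.2, 103 and 104 with quizartinib and 101, 86.3 and 111 with combo, and 73.9, 90.8 and 66.6 in hBMSC-CM vehicle, 72.2, 102 and 96.7 with quizartinib, 80.6, 85 and 84.3 with everolimus and 90.8, 109 and 113 with combo. GMPR2 was 0.68 ± 0.15 (SE), adjusted p = 0.000162 in polysomes against input in RPMI vehicle.

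HPRT1 polysome levels were 28.2, 57.6 and 63.2 CPM in RPMI vehicle, 14.1, 21.7 and 19.2 with quizartinib and 17.9, 18 and 18.5 with combo, and 24.8, 41.1 and 46.6 in hBMSC-CM vehicle, 20.1, 28.5 and 32.6 with quizartinib, 41.7, 48.2 and 49.5 with everolimus and 16.7, 22 and 26.2 with combo. UCK2 polysome levels were 175, 196 and 200 CPM in RPMI vehicle, 78.8, 101 and 83.4 with quizartinib and 77.9, 86.7 and 83.1 with combo, and 177, 175 and 179 in hBMSC-CM vehicle, 116, 155 and 137 with quizartinib, 166, 178 and 175 with everolimus and 107, 140 and 137 with combo. HPRT1 replicate 1 was the lowest polysome library of RPMI vehicle by about 2 times, while the UCK2 vehicle libraries of both media lay above all quizartinib libraries. UPP1 polysome levels were 0.381, 0.255 and 0.264 CPM in RPMI vehicle, 1.12, 1.02 and 0.343 with quizartinib and 0.743, 1.4 and 0.362 with combo, and 2.33, 2.22 and 0.724 in hBMSC-CM vehicle, 0.986, 2.22 and 1.79 with quizartinib, 2.1, 5.79 and 8.75 with everolimus and 2.35, 4.11 and 2.16 with combo. UPP1 polysome values in hBMSC-CM everolimus spread over a 4-fold range.

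NME1 polysome levels were 121, 200 and 170 CPM in RPMI vehicle, 8.55, 9.39 and 8.85 with quizartinib and 7.39, 7.24 and 5.39 with combo, and 78, 128 and 117 in hBMSC-CM vehicle, 13.7, 37.5 and 43.4 with quizartinib, 68.6, 66.9 and 74.2 with everolimus and 6.95, 20.6 and 16.6 with combo. NME2 polysome levels were 3.43, 3.9 and 4.58 CPM in RPMI vehicle, 1.68, 1.09 and 0.264 with quizartinib and 0.149, 0.406 and 0.461 with combo, and 2.46, 1.27 and 3.2 in hBMSC-CM vehicle, 1.48, 0.943 and 1.46 with quizartinib, 2.9, 2.93 and 3.26 with everolimus and 0.919, 1.38 and 2.06 with combo. NME1 polysome values with quizartinib in RPMI were below all others except those of RPMI combo and hBMSC-CM combo replicate 1, and NME2 remained under 5 CPM in every polysome library.

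In the other 7 polysome comparisons, quizartinib in hBMSC-CM, the 2 comparisons of media, the 2 of combo, everolimus alone and the difference between media, edgeR called 0 members and 0% of all genes, and limma voom and DESeq2 called 0 members. Members with an unadjusted p under 0.05 numbered 0 for quizartinib in hBMSC-CM, 0 for media without drug, 2 for media under quizartinib (APRT and UPP1), 0 for combo in RPMI, 2 for combo in hBMSC-CM (GART and UMPS), 1 for everolimus (UMPS) and 4 for the difference between media (UPP1, UMPS, APRT and PRPS1). For UPP1, which met the filter only through hBMSC-CM, these p-values are no support for a difference between media.

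Other genes of nucleotide metabolism, from 3 lists, are given by counts, beside 16.6% of all genes that rose and 18% that fell with quizartinib in RPMI. Of 14 genes for deoxynucleotides and thymidylate, 9 fell and 1 rose with quizartinib in RPMI. The largest fall was RRM2, the small subunit of ribonucleotide reductase (-2.49 ± 0.22 (SE), adjusted p = 8.37e-11), and the rise was SAMHD1, which breaks down deoxynucleotides (0.65 ± 0.19 (SE), adjusted p = 0.00735). In hBMSC-CM 5 fell and 1 rose, where 6.84% of all genes fell and 5.46% rose. RRM2 (-1.72 ± 0.21 (SE)) and SAMHD1 (1.04 ± 0.19 (SE)) led again. Of 15 tested other kinases and salvage genes, 3 rose and 2 fell in RPMI, near the share of all genes, with the adenylate kinase AK1 at 2.32 ± 0.46 (SE) and MTAP, which salvages methylthioadenosine, at -1.66 ± 0.26 (SE). Of 17 tested breakdown genes, 5 rose and 4 fell, SAMHD1 being counted here again, with AMPD3, an AMP deaminase, at 1.24 ± 0.29 (SE). Under quizartinib TYMP, thymidine phosphorylase, was higher in hBMSC-CM than in RPMI (1.71 ± 0.29 (SE), adjusted p = 5.92e-05), as it was without drug (1.46 ± 0.28 (SE), adjusted p = 0.00218), and ADK, adenosine kinase, was lower (-0.76 ± 0.17 (SE), adjusted p = 0.00206).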

How the data were processed

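Input and heavy polysome poly(A) RNA of 21 MOLM-13 cultures was sequenced in 42 libraries. The authors trimmed reads with BBDuk and aligned them with STAR 2.6.0a to hg38 with Ensembl release 96. They counted genes with STAR as well, and deposited raw read counts per gene, with no normalization. The strand setting of the counting is not given in the sources used here. Rows sharing a gene name were summed (58884 rows, 57353 names), and 12939 genes with a mean of at least 1 count and 1 CPM were kept, holding 99.8% of counts. With 19439370 to 38786394 counts per library, depth limits the scarce members most.

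Groups followed the labels. edgeR 4.0.16 (R 4.3.3; quasi-likelihood, robust) was fitted once to all 42 libraries with 14 group means and TMM factors, and p-values were adjusted by Benjamini-Hochberg over 12939 genes, with 0.05 as the threshold. Polysome effects are the polysome change minus the input change. Intervals use the t distribution with 28 degrees of freedom. CPM values are TMM scaled, and polysome minus input levels use a prior count of 2. Alternatives were limma voom (limma 3.58.1), DESeq2 1.42.0, RLE factors, library size only, no filter, a mean of at least 10 CPM, only the groups compared, replicate blocks, a culture block and each culture left out. The fit was tested on simulated data.

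Replicate numbers paired the samples: deviations from group means of same-numbered libraries correlated above 0.1 in 45 of 45 pairs among the 6 conditions other than everolimus alone, in each fraction (input 0.284 to 0.658, polysome 0.153 to 0.715). Pairs with an everolimus library ran from -0.059 to 0.00228 in input and -0.238 to 0.103 in polysomes. The members and gene lists were chosen with earlier results of these data known. Genes with values in every library were set by role (the first enzymes, paired isoenzymes and salvage and kinase genes of each list), with the largest called rise and fall per comparison, and PNP was added after its values were seen. Gene positions are from GENCODE release 44 (GRCh38).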

Additional observations from a re-analysis of the deposited data

Results flagged for a closer look

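For 7 members the effect of quizartinib on input RNA differed between media by the interaction term of the edgeR fit, and in all 7 the fall was smaller in hBMSC-CM. The difference (log2 change in hBMSC-CM minus that in RPMI) was 1.93 for CTPS1, 1.60 for CAD, 1.47 for DHODH, 1.25 for UMPS, 1.24 for PNP, 1.14 for PRPS1 and 1.01 for UCK2. The call for DHODH was lost when any 1 of 6 cultures was left out.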

How the results depend on the processing

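With the replicate block within each fraction and without everolimus libraries (the pairing fit added after the data were seen), counts of called members in input were 2 for media without drug (0 in the reported fit), 9 for combo in hBMSC-CM (2) and 14 for the difference between media (7), and 5 for polysome minus input with quizartinib in RPMI (1). The fit without everolimus libraries called 7.03%, 4.68%, 9.83% and 14% of all genes in these comparisons. With everolimus libraries kept, the block within each fraction gave 1, 7, 14 and 4, and 2 for everolimus alone (0). Over all 12939 genes that block called 442 higher and 143 lower for media without drug and 32 and 348 for combo in hBMSC-CM. It called 664 and 212 for the difference, 1004 and 509 for polysome minus input and 374 and 301 for everolimus alone. A single replicate block gave 6 for combo in hBMSC-CM and 12 for the difference. Of all genes it called 12 higher and 142 lower for combo, and 381 higher and 74 lower for the difference. For combo in hBMSC-CM, DESeq2 gave 4, library size only 1, no filter 1 and only the groups compared 0, and the last gave 11 for the difference. In the combo comparison DESeq2 called 0.788% of all genes, library size only 18 lower, and no filter 1 higher and 79 lower. For the difference, only the groups compared called 374 genes higher and 41 lower. For polysome minus input with quizartinib in RPMI, library size only, no filter, only the groups compared and the culture block each gave 0. The blocks changed no count by over 1.5 times elsewhere. The cause was not tested. Leaving out 1 culture gave 20 to 22 calls for quizartinib in RPMI, 9 to 14 in hBMSC-CM, 9 to 12 for media under quizartinib, 0 to 3 for combo in hBMSC-CM, 6 to 8 for the difference, 13 to 17 for polysome against input, 0 to 0 for polysome minus input with quizartinib in RPMI and 0 for the rest. UMPS in polysomes against input turned to -0.02 with library size only (adjusted p = 0.912). UPP1, NME2 and ADSL rest on few counts.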
